A study of Mus musculus with 16 samples.

Results

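Chemokine ligands that T cells and tumor myeloid cells make were followed across CD4+ and CD8+ tumor-infiltrating lymphocytes (TILs) of WT and Sirt2-/- mice. The members were the rows of the count table named Ccl1, Ccl2, Ccl3, Ccl4, Ccl5, Ccl8, Xcl1, Cxcl9, Cxcl10 and Cxcl16, which are 10 of the 55450 genes listed. The rule picks them by name. All 10 are protein-coding genes.

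The TILs were taken from tumors grown s.c. from the mouse melanoma line B16F10, and their total RNA was sequenced with a stranded, ribosomal RNA-depleted kit. There were 4 libraries for each of WT CD4+, Sirt2-/- CD4+, WT CD8+ and Sirt2-/- CD8+ TILs, 16 in all. Per the methods of the study, Sirt2-/- mice were the Jackson Laboratory line B6.129-Sirt2tm1.1Fwa/J, mice were 7 to 8 weeks old, and controls were matched for age and sex. WT and Sirt2-/- TILs shared the tumor line and, as far as the sources used here state, received no other treatment. The Sirt2 deletion is present in every host cell, T cells and tumor myeloid cells included, whereas the B16F10 tumor cells do not carry it. TILs were enriched by density gradient and CD3ε beads, and how CD4+ and CD8+ cells were then separated is not given in the sources used here. The sources also do not say which CD4+ and CD8+ libraries came from the same mouse.

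Chemokines are small secreted proteins that steer leukocytes through G protein-coupled receptors. Activated and cytotoxic T cells are known to release Ccl3, Ccl4, Ccl5 and Xcl1, which attract monocytes, T cells and dendritic cells. Ccl2, Ccl8, Cxcl9, Cxcl10 and Cxcl16 are known mainly as products of macrophages, monocytes, dendritic cells or tumor cells, with Cxcl9 and Cxcl10 induced by interferon gamma.

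The interferon-induced pair Cxcl9 and Cxcl10 and, beside them, Ccl3, a ligand of cytotoxic T cells, are shown by the 250 bases before the RefSeq start of each gene, as examples of the 2 kinds of ligand named above. RefSeq promoter entries were found for 6 of the 10 members (Ccl1, Ccl3, Ccl8, Xcl1, Cxcl9 and Cxcl10). The windows are on GRCm38.p6, minus strand, at chr5:92328080-92328329 for Cxcl9, chr5:92348890-92349139 for Cxcl10 and chr11:83649379-83649628 for Ccl3. Capitals mark matches, on either strand, to a TATA box (TATAAA), a κB-type motif (GGG and CC with any 5 bases between them), a pair of interferon-stimulated response element half-sites (GAAA and GAAA with any 2 bases between them) or an AP-1 motif (TGANTCA), and a run of 11 capitals is a pair of κB-type matches shifted by 1 base.
Cxcl9: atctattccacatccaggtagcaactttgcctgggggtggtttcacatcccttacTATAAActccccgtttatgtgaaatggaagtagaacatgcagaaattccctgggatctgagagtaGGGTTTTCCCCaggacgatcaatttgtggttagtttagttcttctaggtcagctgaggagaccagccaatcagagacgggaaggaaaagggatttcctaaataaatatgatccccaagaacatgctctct
Cxcl10: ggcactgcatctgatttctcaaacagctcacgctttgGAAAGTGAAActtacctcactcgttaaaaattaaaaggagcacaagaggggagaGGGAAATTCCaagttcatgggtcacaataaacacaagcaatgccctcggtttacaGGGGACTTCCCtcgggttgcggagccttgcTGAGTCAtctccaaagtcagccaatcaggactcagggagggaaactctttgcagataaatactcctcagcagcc
Ccl3: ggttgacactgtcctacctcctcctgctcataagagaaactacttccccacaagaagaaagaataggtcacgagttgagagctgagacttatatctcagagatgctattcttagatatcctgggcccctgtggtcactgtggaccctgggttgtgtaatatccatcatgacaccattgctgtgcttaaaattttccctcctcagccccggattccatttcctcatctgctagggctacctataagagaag
Cxcl10 held the half-site pair 213 to 204 bases before its start, κB-type matches 159 to 150 and 104 to 94 bases before it, and an AP-1 match 74 to 68 bases before it. Cxcl9 held a κB-type match 130 to 120 bases and a TATA box 195 to 190 bases before its start. No match to these motifs or to the interferon gamma-activated site (TTCNNNGAA) lay in the Ccl3 or Xcl1 window. Ccl1 held a κB-type match and Ccl8 a TATA box. Among 32851 RefSeq promoter windows of the same length, the half-site pair occurred in 2.98%, the κB-type motif in 45.8%, the activated site in 7.02%, the AP-1 motif in 6.75% and the TATA box in 12.4%. These matches are letters in a window and not measured binding sites.

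Total counts per library ranged from 28000949 to 62407851. The number of genes detected, with at least 1 count, was 8169 for Sirt2-/- CD4+ replicate 4, 12587 for WT CD4+ replicate 1 and 14411 for WT CD8+ replicate 1. The other 13 libraries had 17730 to 22138. In those 3 libraries 1, 3 and 5 of the 10 members had a count, against 7 to 10 in the others, so each comparison is given with all libraries and without them. A comparison used edgeR's quasi-likelihood test over all genes that passed a filter on low counts, and called is used of genes whose p, adjusted by the Benjamini-Hochberg method, was under 0.05. The targeted gene, Sirt2, was at 0 to 12.2 CPM (counts scaled to a common library size) in the Sirt2-/- and 33.4 to 75.6 CPM in the WT libraries. Cd4, the CD4 co-receptor, was at 384 to 620 CPM in CD4+ and 0 to 4.93 CPM in CD8+ libraries. Cd8a, of the CD8 co-receptor, was at 1003 to 1261 CPM in CD8+ and 0.0333 to 33.4 CPM in CD4+ libraries. Within CD4+ TILs it was at 10.2 to 33.4 CPM in Sirt2-/- and 0.0333 to 9.24 CPM in WT libraries. Cd8b1, of the same co-receptor, was at 12.1 to 60.8 CPM and 11.5 to 15.6 CPM there. The part of CD8+ T cell RNA in the CD4+ values was not tested.

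**Figure D1:**
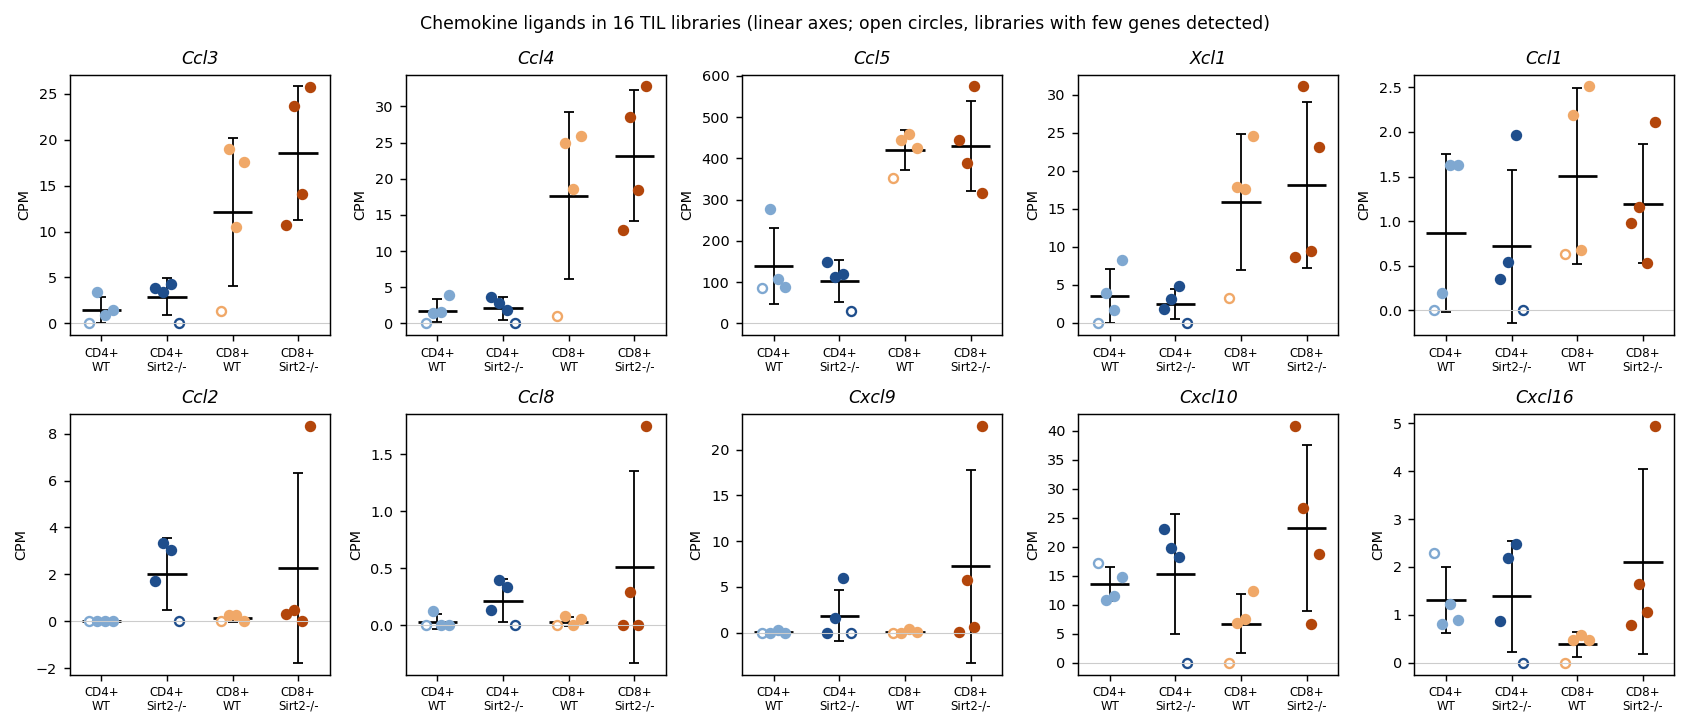
Level of each ligand in CPM (linear axes, 1 panel per gene) in the 4 libraries of each group, with bars at the mean and lines of ± 1 SD, which run below 0 where the spread exceeds the mean. Open circles are the 3 libraries with few genes detected. Ccl3, Ccl4, Ccl5 and Xcl1 had their highest means in CD8+ TILs, and Ccl2, Ccl8, Cxcl9 and Cxcl16 reached their highest values in Sirt2-/- CD8+ replicate 4.

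Ccl5 dominated the group. It was detected in all 16 libraries and held 69.2% to 100% of the counts of the 10 members within a library. Per kilobase of exon, Ccl5 was at 438 ± 49.8 CPM (SD, n = 4) in WT CD8+ TILs, where the next members were Xcl1 at 30.2 ± 17.1, Ccl4 at 26.7 ± 17.5 and Ccl3 at 15.8 ± 10.5 CPM per kilobase. The order of these 3 lay within their spread. The remaining members were at 2.97 CPM per kilobase or less in that group. The Ccl1 model spans 12 exon blocks and that of Cxcl10 is a single block with its introns included, which lowers their values per kilobase.

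The comparison of CD8+ with CD4+ TILs asks which T cell type carried each ligand. The T cell ligands Ccl3, Ccl4, Ccl5 and Xcl1 had the 4 largest fold changes toward CD8+ TILs among the members tested in each genotype. Ccl2, not tested in WT TILs, had 0 counts in WT CD4+ and 0 to 0.272 CPM in WT CD8+ libraries, at least 7.34-fold higher against a floor of 3 counts over the CD4+ group, which covers counting error only. In WT TILs, Ccl5 was the 1 of 7 members tested that was called, against 11.9% of 14892 genes called in either direction and 4.89% called higher. Without replicate 1 of both WT groups, Ccl3, Ccl4, Ccl5 and Xcl1 were called higher, 4 of 7 members tested, against 28% of 15694 genes called in either direction and 14.9% called higher. In Sirt2-/- TILs, 0 of 10 members were called with edgeR (2 with an unadjusted p under 0.05, and 2 called with DESeq2), against 2.24% of 15787 genes called, 0.918% called higher and 11.7% with an unadjusted p under 0.05. Without Sirt2-/- CD4+ replicate 4 the same ligands, Ccl3, Ccl4, Ccl5 and Xcl1, were called higher, 4 of 10, against 25.4% of 16703 genes called in either direction and 13.8% called higher. No member was called lower in CD8+ TILs in any of these fits. With all libraries, the median log2 fold change of the members tested was 1.51 in WT and 1.56 in Sirt2-/- TILs, beside −0.02 and 0.16 over all genes tested.

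Ccl5 (ENSMUSG00000035042.2; chromosome 11 of GRCm38, 83525778 to 83530518) is a T cell and monocyte attractant that binds Ccr1 and Ccr3, among others. In WT mice it was at 352, 444, 460 and 426 CPM in CD8+ replicates 1 to 4 and at 86.3, 276, 108 and 87.8 CPM in the CD4+ replicates. The groups did not overlap, against 12.6% of genes tested that separated with CD8+ higher, and the highest CD4+ value, in replicate 2, stood apart from the other CD4+ libraries. The log2 fold change was 1.51 (SE 0.34, adjusted p = 0.0148 with edgeR) and was 1.49 (SE 0.35, adjusted p = 0.0101 with edgeR) without the 2 libraries with few genes. The adjusted p was 0.0525 with edgeR without WT CD4+ replicate 3 (log2 fold change 1.42) and 0.0999 with no filter on low counts (1.59), and the call was kept with every other library left out in turn. In Sirt2-/- mice Ccl5 was at 445, 389, 575 and 315 CPM in CD8+ and 148, 113, 119 and 29.8 CPM in CD4+ TILs. Again no CD4+ library reached the lowest CD8+ library. Its log2 fold change there was 2.05 (SE 0.45, adjusted p = 0.0605 with edgeR), and 1.73 (SE 0.20, adjusted p = 0.000284 with edgeR) without Sirt2-/- CD4+ replicate 4.

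Ccl3 (ENSMUSG00000000982.5; chromosome 11, 83647844 to 83649355), an inflammatory attractant that binds Ccr1, and Ccl4 (ENSMUSG00000018930.3; chromosome 11, 83662584 to 83664683), a related attractant, lie 13.2 kb apart. In WT mice Ccl3 was at 1.36, 19.0, 10.5 and 17.6 CPM in CD8+ replicates 1 to 4 and at 0, 3.44, 0.936 and 1.47 CPM in CD4+ TILs. In Sirt2-/- mice it was at 10.7, 23.6, 14 and 25.7 CPM in CD8+ and 3.91, 3.47, 4.29 and 0 CPM in CD4+ TILs. CD8+ values lay above all CD4+ values except in WT CD8+ replicate 1, which fell within the WT CD4+ range. The log2 fold change of Ccl3 was 2.96 (SE 1.14, adjusted p = 0.132 with edgeR) in WT and 2.64 (SE 1.40, adjusted p = 0.578 with edgeR) in Sirt2-/- TILs. Without the libraries with few genes it was 3.0 (SE 0.45, adjusted p = 0.000731 with edgeR) and 2.22 (SE 0.31, adjusted p = 0.000629 with edgeR).

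Ccl4 was at 1.03, 25.0, 18.6 and 25.9 CPM in WT CD8+ and at 0, 1.48, 1.60 and 3.87 CPM in WT CD4+ replicates 1 to 4. It was at 13, 28.6, 18.4 and 32.8 CPM in Sirt2-/- CD8+ and at 3.71, 2.86, 1.83 and 0 CPM in Sirt2-/- CD4+ TILs. As for Ccl3, the Sirt2-/- groups did not overlap and the WT groups overlapped through CD8+ replicate 1 alone. CD8+ over CD4+, the log2 fold change was 3.25 (SE 1.15, adjusted p = 0.0982 with edgeR) in WT and 3.44 (SE 1.41, adjusted p = 0.372 with edgeR) in Sirt2-/- TILs. It was 3.33 (SE 0.37, adjusted p = 9.79e-05 with edgeR) and 3.01 (SE 0.38, adjusted p = 0.000518 with edgeR) without the libraries with few genes. Ccl4 had the largest fold change of the ligands called in each of these fits without the libraries with few genes.

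Xcl1 (ENSMUSG00000026573.7; chromosome 1, 164931644 to 164935527) is the ligand of Xcr1 on cross-presenting dendritic cells. It was at 3.27, 17.9, 17.6 and 24.5 CPM in WT CD8+ and 0, 3.95, 1.65 and 8.20 CPM in WT CD4+ replicates 1 to 4. In Sirt2-/- mice it was at 8.66, 31.1, 9.44 and 23.1 CPM in CD8+ and 1.83, 3.10, 4.77 and 0 CPM in CD4+ TILs. The Sirt2-/- groups did not overlap, and in WT mice CD8+ replicate 1 lay within the CD4+ range. The CD8+ over CD4+ log2 fold change was 2.11 (SE 1.08, adjusted p = 0.264 with edgeR) in WT and 2.87 (SE 1.45, adjusted p = 0.543 with edgeR) in Sirt2-/- TILs, and 2.12 (SE 0.45, adjusted p = 0.00563 with edgeR) and 2.45 (SE 0.56, adjusted p = 0.0142 with edgeR) without the libraries with few genes. The exons of Xcl1 overlap those of Gm20743 on the opposite strand over 98 bases, 18.7% of its exon length, and the strand setting of the counting is not given in the sources used here.

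Ccl3, Ccl4, Ccl5 and Xcl1 were the 4 members whose Sirt2-/- CD8+ and CD4+ groups did not overlap, against 16% of genes tested that separated with CD8+ higher. These ligands are also products of NK cells. The summed level of 5 NK markers was 28.4 to 37.8 CPM in WT CD8+ and 0 to 8.09 CPM in WT CD4+ libraries, and 17.7 to 45.6 CPM in Sirt2-/- CD8+ and 0.0179 to 16.3 CPM in Sirt2-/- CD4+ libraries. Of these markers, Klre1, which activated CD8+ T cells can also express, was called higher in WT CD8+ TILs (log2 fold change 4.38, SE 0.88, adjusted p = 0.00813 with edgeR). Ncr1, the defining NK receptor, was at 0 to 1.19 CPM in WT CD8+ and 0 to 1.85 CPM in WT CD4+ libraries, with overlapping groups. The part of NK cell RNA in the ligand values was not tested. In these bulk samples, more cells of a type that make a ligand and more RNA per cell cannot be told apart.

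Ccl1 (ENSMUSG00000020702.13; chromosome 11, 82176657 to 82305690), a ligand of Ccr8, stood apart from the other T cell ligands. It was at 0.635, 2.19, 0.679 and 2.51 CPM in WT CD8+ and 0, 0.196, 1.63 and 1.63 CPM in WT CD4+ replicates 1 to 4. Among Sirt2-/- TILs it was at 0.976, 1.16, 0.527 and 2.11 CPM in CD8+ and 0.353, 0.543, 1.96 and 0 CPM in CD4+ libraries. All 4 groups overlapped, and the log2 fold change of CD8+ over CD4+ was 0.70 (SE 1.37) in WT and 0.72 (SE 1.33) in Sirt2-/- TILs. Neither passed the threshold with or without the libraries with few genes.

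Cxcl10 and Cxcl16 had fold changes of the opposite sign to the T cell ligands in WT TILs, without being called. Cxcl10, a ligand of Cxcr3, had a log2 fold change of CD8+ over CD4+ of −1.09 (SE 0.97, adjusted p = 0.564 with edgeR) in WT and 0.58 (SE 1.43) in Sirt2-/- TILs. Cxcl16, the ligand of Cxcr6, had −1.83 (SE 1.28, adjusted p = 0.442 with edgeR) in WT and 0.58 (SE 1.38) in Sirt2-/- TILs. The Cxcl16 levels of the WT groups did not overlap, at 0 to 0.571 CPM in CD8+ and 0.807 to 2.29 CPM in CD4+ libraries, against 10% of genes tested that separated with CD8+ lower.

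**Figure D2:**
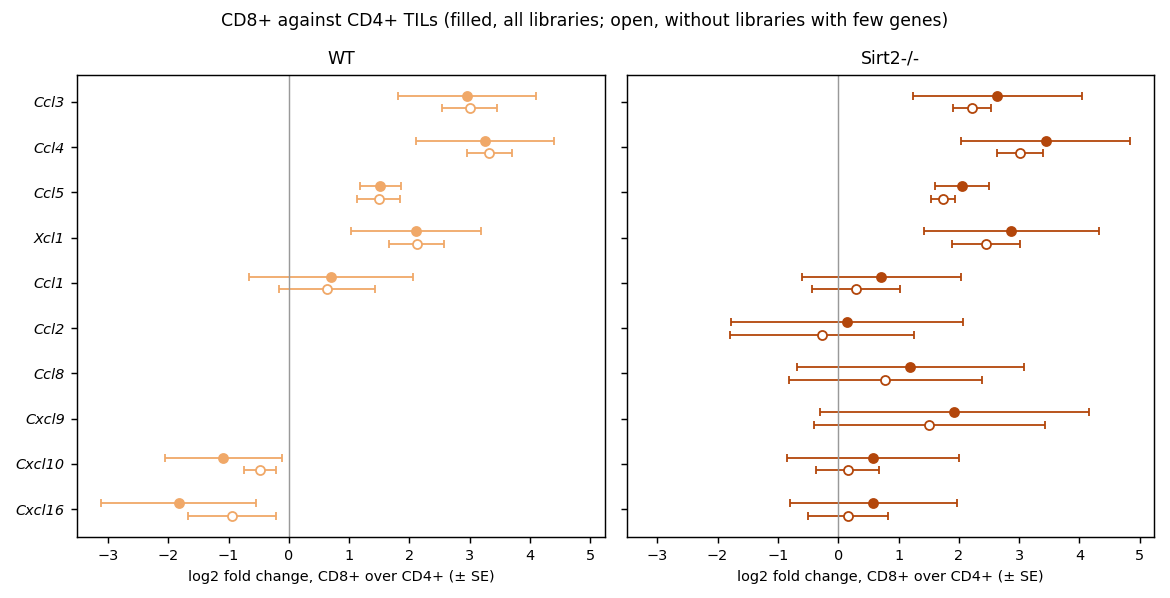
Log2 fold change of each ligand in CD8+ over CD4+ TILs with its SE (x axis) in WT (left) and Sirt2-/- TILs (right), from edgeR with all libraries (filled) and without the libraries with few genes (open). Ccl2, Ccl8 and Cxcl9 were not tested in WT TILs. The values for Ccl3, Ccl4, Ccl5 and Xcl1 lie above 0 in both genotypes, and the SE of Ccl3, Ccl4 and Xcl1 is smaller without those libraries.

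The comparison of Sirt2-/- with WT TILs asks whether loss of Sirt2 altered the ligands in either cell type. No member was called in CD8+ TILs (0 of 9 tested with edgeR, 3 with an unadjusted p under 0.05, and 0 called with DESeq2), against 0.00654% of 15302 genes called and 3.78% with an unadjusted p under 0.05. Without WT CD8+ replicate 1 it was again 0 of 9 with edgeR, against 0.0439% of 15943 genes. With all CD8+ libraries, the 1 gene called was Sirt2 (log2 fold change −2.22, SE 0.21, adjusted p = 0.00663 with edgeR). No member was called in CD4+ TILs with all libraries (0 of 7 tested with edgeR, 0 with an unadjusted p under 0.05, and 0 called with DESeq2), against 0% of 15070 genes called and 1.26% with an unadjusted p under 0.05. The deleted gene Sirt2 was not called by edgeR there either, so the lack of calls in CD4+ TILs says little about the ligands. Without Sirt2-/- CD4+ replicate 4 and WT CD4+ replicate 1, Ccl2 was called higher in Sirt2-/- CD4+ TILs, 1 of 9 members tested. Of the 16034 genes tested there, 0.0374% were called in either direction and 0.0249% called higher. Ccl2 had 0 counts in every WT CD4+ library and passed the filter through Sirt2-/- libraries alone. Its call is therefore no support beyond those counts. Over the members tested, the median log2 fold change was 0.62 in CD8+ and 0.11 in CD4+ TILs, beside 0.01 and −0.11 over all genes tested. Without the libraries with few genes the members' medians were 0.24 in CD8+ and 0.72 in CD4+ TILs, with 9 members tested in each. Over all genes tested in those fits the medians were 0.009 and −0.002. Ccl2 and Cxcl9, at or near 0 in WT TILs, passed the filter mainly through Sirt2-/- libraries. In CD4+ TILs neither was tested with all libraries. Medians that include these genes are raised by the filter and are no test of a shift of the members.

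Ccl2 (ENSMUSG00000035385.5; chromosome 11, 82035571 to 82037453), the monocyte attractant that binds Ccr2, had 0 counts in all 4 WT CD4+ libraries and 78, 142, 134 and 0 counts in Sirt2-/- CD4+ replicates 1 to 4. On the CPM scale the Sirt2-/- values were 1.72, 3.36, 3.03 and 0. Every Sirt2-/- CD4+ library except the one with 8169 genes thus had counts of Ccl2, and no WT CD4+ library did. Against a floor of 3 counts over the WT group, Ccl2 was at least 99.0-fold higher in Sirt2-/- CD4+ TILs. This bound covers counting error only, since reads of a low-input library without molecular identifiers are not independent molecules, and the deepest library, Sirt2-/- CD4+ replicate 4, also had 0. With all libraries Ccl2 did not pass the filter on low counts and was not tested. Without the 2 libraries with few genes it passed through Sirt2-/- libraries alone, and the adjusted p was 0.0367 with edgeR. Without only 1 of them the adjusted p was 1.0 with edgeR in either case.

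In CD8+ TILs Ccl2 was at 0.305, 0.494, 0 and 8.33 CPM in Sirt2-/- and 0, 0.264, 0.272 and 0 CPM in WT replicates 1 to 4. One library, Sirt2-/- replicate 4, stood far above the others, and the remaining values of the genotypes overlapped. The log2 fold change was 4.06 (SE 1.76, unadjusted p = 0.0416 and adjusted p = 0.986 with edgeR) and 0.96 (SE 1.70) without that replicate. The gene Gm17268 runs over Ccl2 on the opposite strand, with no exon base shared.

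Ccl8 (ENSMUSG00000009185.2; chromosome 11, 82115185 to 82116799), which lies 77.7 kb from Ccl2 and acts on monocytes and T cells, was the least detected member together with Ccl2, with counts in 8 of 16 libraries each. It was at 0.132, 0.402, 0.339 and 0 CPM in Sirt2-/- and 0, 0.131, 0 and 0 CPM in WT CD4+ replicates 1 to 4. In CD8+ TILs it was at 0, 0.296, 0 and 1.75 CPM in Sirt2-/- and 0, 0.0793, 0 and 0.0564 CPM in WT libraries. The groups overlapped in both cell types, and the gene did not pass the filter for a test between genotypes in either.

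Cxcl9 (ENSMUSG00000029417.9; chromosome 5, 92321347 to 92328079) and Cxcl10 (ENSMUSG00000034855.13; chromosome 5, 92346638 to 92348889) lie 18.6 kb apart and both bind Cxcr3. Cxcl9 was at 0.0407, 5.80, 0.628 and 22.6 CPM in Sirt2-/- CD8+ and 0, 0, 0.380 and 0.0564 CPM in WT CD8+ replicates 1 to 4. Sirt2-/- replicate 1 lay within the WT range and the other Sirt2-/- libraries lay above it. Between genotypes the log2 fold change was 6.01 (SE 1.71, unadjusted p = 0.00483 and adjusted p = 0.986 with edgeR) and 4.25 (SE 1.72, unadjusted p = 0.0328 and adjusted p = 1.0 with edgeR) without Sirt2-/- CD8+ replicate 4. In CD4+ TILs Cxcl9 was at 0, 1.58, 5.92 and 0 CPM in Sirt2-/- and 0, 0, 0.267 and 0 CPM in WT libraries and was not tested with all libraries.

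Cxcl10 was at 40.9, 26.6, 6.61 and 18.7 CPM in Sirt2-/- CD8+ and 0, 6.93, 7.50 and 12.4 CPM in WT CD8+ replicates 1 to 4. Sirt2-/- replicate 3 lay within the WT range and the other Sirt2-/- libraries lay above it. The log2 fold change was 1.79 (SE 0.92, adjusted p = 0.986 with edgeR). In CD4+ TILs Cxcl10 was at 23.1, 19.8, 18.2 and 0 CPM in Sirt2-/- and 17.2, 10.8, 11.5 and 14.8 CPM in WT libraries. The value of 0 belonged to the library with 8169 genes and the other Sirt2-/- values lay above the WT range. Here the log2 fold change was 0.19 (SE 1.40, adjusted p = 1.0 with edgeR), and 0.72 (SE 0.22, unadjusted p = 0.00628 and adjusted p = 0.788 with edgeR) without the libraries with few genes. Exons of Art3 overlap Cxcl10 on the opposite strand over 133 bases, 5.91% of its exon length. The WT CD8+ library with no Cxcl10 count, replicate 1, had few genes detected and the highest Art3 level, 4.39 CPM. A link between these 2 values was not tested.

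Cxcl16 (ENSMUSG00000018920.11; chromosome 11, 70453983 to 70459984) was the member whose genotypes did not overlap in CD8+ TILs, 1 of 9 tested, against 1.74% of genes that separated with Sirt2-/- higher. It was at 0.793, 1.65, 1.05 and 4.95 CPM in Sirt2-/- and 0, 0.476, 0.571 and 0.480 CPM in WT replicates 1 to 4. The highest value was again that of Sirt2-/- replicate 4. Sirt2-/- over WT, the log2 fold change was 2.47 (SE 1.01, unadjusted p = 0.0325 and adjusted p = 0.986 with edgeR) and 1.60 (SE 1.12) without that replicate. In CD4+ TILs Cxcl16 was at 0.861, 2.20, 2.48 and 0 CPM in Sirt2-/- and 2.29, 0.807, 1.23 and 0.899 CPM in WT libraries, with overlapping groups. Exons of Zmynd15 overlap 552 bases of Cxcl16, 18.3% of its exon length, on the opposite strand.

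None of the T cell ligands was called between genotypes. In CD8+ TILs the log2 fold change of Sirt2-/- over WT was 0.03 (SE 0.16) for Ccl5, 0.20 (SE 0.55) for Xcl1, 0.40 (SE 0.66) for Ccl4, 0.62 (SE 0.58) for Ccl3 and −0.33 (SE 0.69) for Ccl1. Each of these values is smaller than, or about the size of, its SE. In CD4+ TILs the values were −0.43 (SE 0.52) for Ccl5, −0.50 (SE 1.85) for Xcl1, 0.28 (SE 1.81) for Ccl4, 1.0 (SE 1.82) for Ccl3 and −0.28 (SE 1.84) for Ccl1. Ccl5 had the smallest SE of the members tested in each cell type, and SE of 1.81 to 1.85 in CD4+ TILs leave changes of several fold undetectable for the other T cell ligands there.

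**Figure D3:**
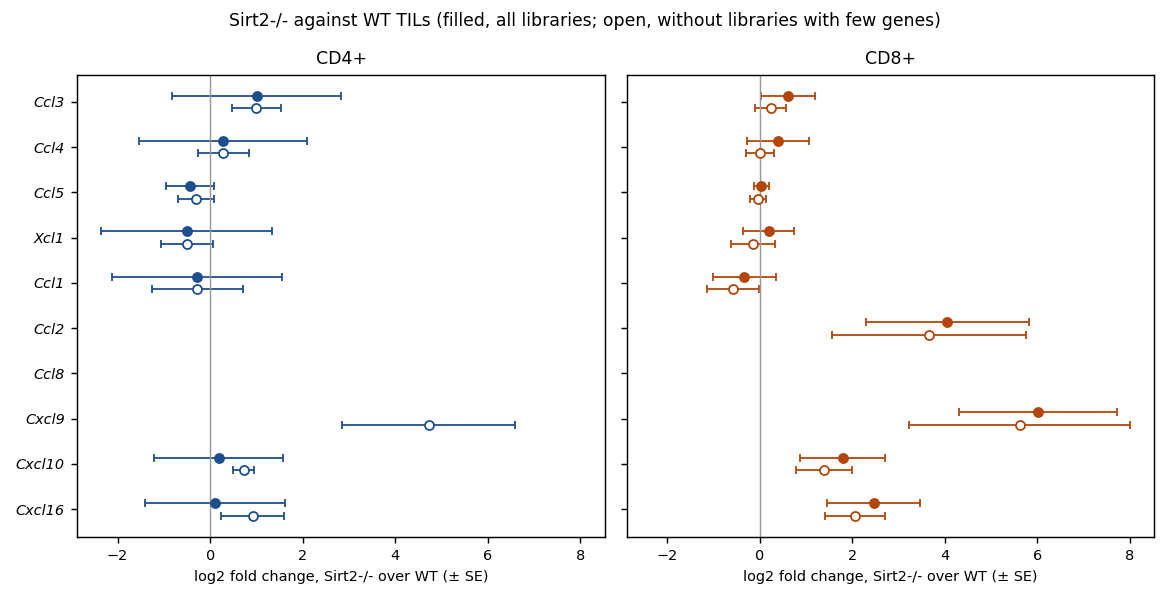
Log2 fold change of each ligand in Sirt2-/- over WT TILs with its SE (x axis) in CD4+ (left) and CD8+ TILs (right), from edgeR with all libraries (filled) and without the libraries with few genes (open). Ccl2 in CD4+ TILs is not drawn because all WT libraries had 0 counts, and Ccl8 was not tested. Ccl2, Cxcl9, Cxcl10 and Cxcl16 lie to the right in CD8+ TILs with wide SE, and Ccl5 lies at 0.03.

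Whether the genotype effect differed between CD8+ and CD4+ TILs was tested as an interaction over all 16 libraries. No member was called (0 of 10 tested with edgeR, 0 with an unadjusted p under 0.05, and 0 called with DESeq2), against 0% of 17270 genes called and 1.98% with an unadjusted p under 0.05. Without the 3 libraries with few genes it was again 0 of 10, against 0% of 17993 genes. A genotype effect that differs between the cell types was therefore not shown for any ligand.

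Markers of tumor myeloid cells were measured beside the ligands. In Sirt2-/- CD8+ replicate 4, which had the highest Ccl2, Ccl8, Cxcl9 and Cxcl16 of all 16 libraries, 12 myeloid markers summed to 44.0 CPM, with none at 0. The sum was 9.30 to 17.4 CPM in the other Sirt2-/- CD8+ and 2.24 to 9.73 CPM in the WT CD8+ libraries. The next highest sum, 37.7 CPM, was in Sirt2-/- CD4+ replicate 3, with 3.03 CPM of Ccl2 and 5.92 CPM of Cxcl9. In CD4+ TILs the sum ranged from 7.57 to 37.7 CPM in Sirt2-/- CD4+ and from 1.5 to 15.8 CPM in WT CD4+ libraries.

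Among the defining myeloid genes, Lyz2, a macrophage lysozyme, was at 0.956, 3.68, 1.13 and 7.65 CPM in Sirt2-/- CD8+ and 0.847, 1.98, 0.190 and 0.508 CPM in WT CD8+ replicates 1 to 4. In CD4+ TILs Lyz2 was at 2.34, 5.01, 10.4 and 11.6 CPM in Sirt2-/- and 0, 4.82, 8.27 and 0.871 CPM in WT replicates. The highest of these values was in Sirt2-/- CD4+ replicate 4, where Ccl2, Ccl8, Cxcl9 and Cxcl16 were at 0. That library had few genes detected, with 10 of the 12 myeloid markers at 0 and a count for 1 of the 10 members. Its myeloid sum of 11.6 CPM was nearly all Lyz2. Csf1r, the receptor for macrophage colony-stimulating factor, was at 1.04, 1.38, 0.142 and 5.25 CPM in Sirt2-/- and 0, 0.555, 0 and 0.564 CPM in WT CD8+ libraries. C1qa, a complement gene of macrophages, reached 2.34 CPM in Sirt2-/- CD8+ replicate 4. Of the 12 markers, 9 were tested in CD8+ TILs, where 0 were called and the median log2 fold change was 2.33, and 8 in CD4+ TILs, where 0 were called and the median was 1.19. The filter on low counts favors markers with counts in Sirt2-/- libraries, so these medians are no test of a difference. The part of myeloid RNA in the Ccl2, Ccl8, Cxcl9 and Cxcl16 values was not tested. Ccl2 was at 1.72 CPM in Sirt2-/- CD4+ replicate 1, where the myeloid sum was 7.57 CPM, Csf1r was at 0.927 CPM and C1qa at 0. Ccl2 was at 0 in WT CD4+ replicate 3, where the sum was 15.8 CPM, Csf1r was at 1.76 CPM and C1qa at 0.423 CPM. Lyz2 alone made 8.27 CPM of that sum. Both libraries were picked after their values were seen, and whether Ccl2 follows the myeloid sum was not tested.

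Markers of fibroblasts and endothelium also had a higher median sum in Sirt2-/- than in WT TILs of each cell type, with none called between genotypes. Col1a1, a fibroblast collagen, had a mean of 7.56 CPM (range 0.203 to 21.6, n = 4) for Sirt2-/- and 0.558 CPM (range 0 to 1.35, n = 4) for WT CD8+ TILs (log2 fold change 3.76, SE 1.37, unadjusted p = 0.0189 and adjusted p = 0.986 with edgeR). The mean of Col3a1, a further collagen, was 6.32 CPM (SD 8.77, n = 4) against 0.132 CPM (SD 0.247, n = 4), and both genes were named after their values were seen. The sum of 6 such markers was 40.6 to 105 CPM in Sirt2-/- CD8+ and 36.2 to 48.3 CPM in WT CD8+ libraries, and 64.5 to 181 CPM in Sirt2-/- CD4+ and 95 to 116 CPM in WT CD4+ libraries. Most of that sum was Pecam1, which T cells also express. Sirt2-/- CD8+ replicate 4 had none of the 6 at 0 and the highest sum of the CD8+ libraries. With all libraries 3 of the 6 were tested in each cell type, and the median log2 fold change was 2.08 in CD8+ and 1.3 in CD4+ TILs. Without the libraries with few genes, 0 of 4 tested were called in either cell type, with median log2 fold changes of 2.51 in CD8+ and 2.99 in CD4+ TILs, beside 1.92 and 1.35 for the myeloid markers. Markers near 0 in WT TILs passed the filter only where Sirt2-/- libraries had counts. These medians are thus raised by the filter and are no test of a difference. Fibroblasts are known to make Ccl2, and the part of stromal RNA in the ligand values was not tested.

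**Figure D4:**
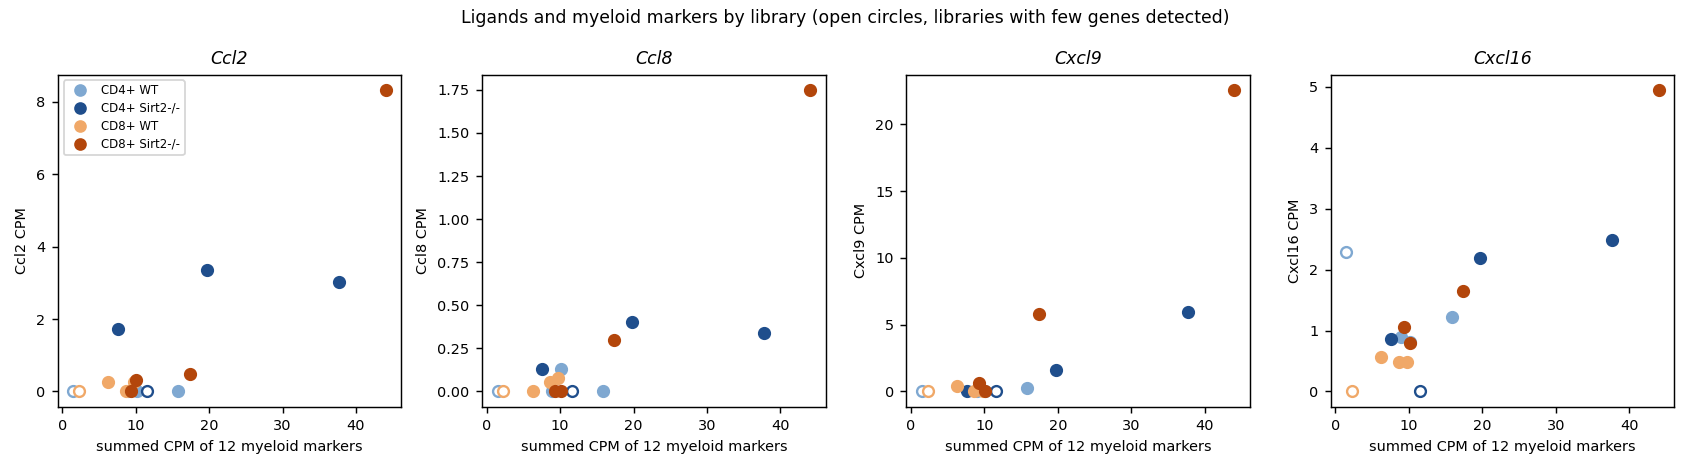
CPM of Ccl2, Ccl8, Cxcl9 and Cxcl16 (y axes, linear) against the summed CPM of 12 myeloid markers (x axis) in each of the 16 libraries, colored by group, with open circles for libraries with few genes detected. Sirt2-/- CD8+ replicate 4 is the point at the far right (44.0 CPM) and the highest in each panel, and the WT libraries lie at or below 15.8 CPM on the x axis.

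Other chemokine ligands, 28 genes listed for comparison, were sparse, with summed levels of 11.9 to 19.3 CPM in WT and 0.0179 to 39.8 CPM in Sirt2-/- libraries. None was called with edgeR in any of the 4 comparisons between groups, with 3 to 11 tested. Over all genes tested, 11.9% were called between cell types in WT and 2.24% in Sirt2-/- TILs. Between genotypes, 0.00654% were called in CD8+ and 0% in CD4+ TILs. In CD8+ TILs, 3 of 7 tested had an unadjusted p under 0.05 between genotypes, against 3.78% of 15302 genes. The filter on low counts favors ligands with counts in Sirt2-/- libraries, so this count is no test of a shift. Ccl9, a myeloid chemokine that binds Ccr1, had a mean of 4.49 CPM (SD 1.76, n = 4) for the Sirt2-/- CD8+ group against 1.57 CPM (SD 0.305, n = 4) for the WT CD8+ group (log2 fold change 1.52, SE 0.41, unadjusted p = 0.00329 and adjusted p = 0.986 with edgeR), and is named here after its values were seen. Ccl7, a neighbor of Ccl2, had no count in any WT library and was at 0 to 1.32 CPM in Sirt2-/- CD4+ and 0 to 2.36 CPM in Sirt2-/- CD8+ libraries. Cxcl11, the further Cxcr3 ligand, was at 0 in all WT libraries and at most 0.443 CPM in Sirt2-/- libraries. Ccl7 and Cxcl11 were not called and are likewise named after their values were seen.

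Several receptors of the ligands differed between the T cell types. In WT TILs, among 7 tested, Cxcr6 was called higher and Ccr2, Ccr4, Ccr8 and Cxcr3 lower in CD8+ than in CD4+ TILs. Of all 14892 genes tested there, 11.9% were called. For Sirt2-/- TILs, among 8 tested, Cxcr6 was called higher and Ccr2 and Ccr4 lower, against 2.24% of 15787 genes called. Without the libraries with few genes, Cxcr6 was called higher and Ccr2, Ccr3, Ccr4, Ccr8 and Cxcr3 lower in both genotypes. In those fits, 28% of 15694 genes were called in WT and 25.4% of 16703 genes in Sirt2-/- TILs. Between genotypes, none of these receptors was called in CD4+ or CD8+ TILs with edgeR, and 0 had an unadjusted p under 0.05.

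Cxcr6, the receptor of Cxcl16, was at 196, 287, 295 and 268 CPM in WT CD8+ and 51.5, 143, 76.1 and 92.2 CPM in WT CD4+ replicates 1 to 4. All CD8+ values lay above all CD4+ values (log2 fold change 1.45, SE 0.27, adjusted p = 0.0059 with edgeR). The log2 fold change of Cxcr6 in Sirt2-/- TILs was 1.3 (SE 0.24, adjusted p = 0.0325 with edgeR).

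Ccr4, a receptor of regulatory and helper T cells, was at 0.514, 0.899, 0.136 and 0.762 CPM in WT CD8+ and 41.1, 38.3, 34.1 and 35.9 CPM in WT CD4+ libraries (log2 fold change −6.08, SE 0.49, adjusted p = 3.9e-05 with edgeR). Ccr8, the receptor of Ccl1 and a marker of tumor Treg cells, was at 2.15, 0.423, 1.93 and 0.536 CPM in WT CD8+ and 7.48, 14, 13.5 and 12.9 CPM in WT CD4+ libraries (log2 fold change −3.32, SE 0.65, adjusted p = 0.00686 with edgeR). Foxp3, which defines Treg cells, was at 359 to 923 CPM in WT CD4+ and 0.968 to 4.32 CPM in WT CD8+ libraries. Ccr2, the receptor of Ccl2, had a log2 fold change of −1.53 (SE 0.24, adjusted p = 0.00206 with edgeR) and Cxcr3, the receptor of Cxcl9 and Cxcl10, one of −1.16 (SE 0.14, adjusted p = 0.000441 with edgeR) in WT TILs. Xcr1, the receptor of Xcl1, was at 0 to 1.18 CPM over the 16 libraries, and Ccr1 at 0 to 3.12 CPM.

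**Figure D5:**
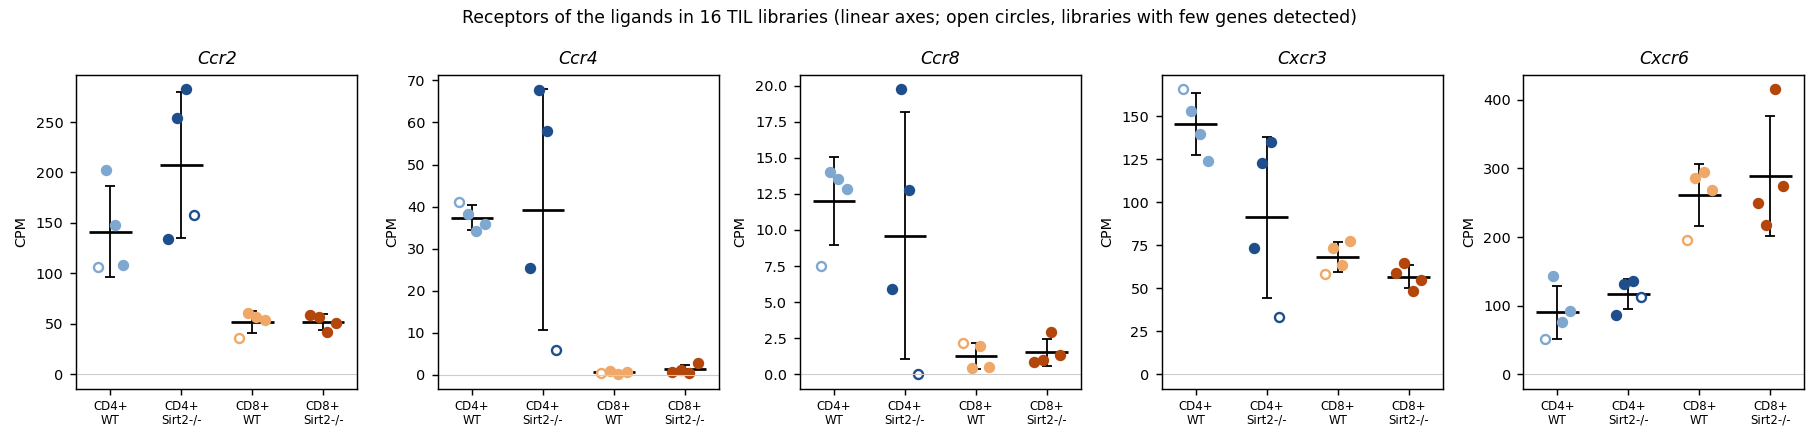
Level in CPM (linear axes, 1 panel per gene) of 5 receptors in the 4 libraries of each group, with bars at the mean and lines of ± 1 SD. Open circles are the 3 libraries with few genes detected. Ccr2, Ccr4, Ccr8 and Cxcr3 have their highest means in CD4+ TILs, and Cxcr6 in CD8+ TILs.

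Other chemokine receptors also differed by cell type. Of 14 listed, 7 were tested in WT TILs, where Cx3cr1, a receptor of cytotoxic cells, was called higher in CD8+ TILs (log2 fold change 1.58, SE 0.37, adjusted p = 0.0189 with edgeR). Ccr6 (−5.59, SE 0.92) and Cxcr4 (−1.72, SE 0.19) were called lower. Cxcr4 was also called lower in Sirt2-/- TILs (−1.70, SE 0.31, adjusted p = 0.034 with edgeR). Of 8 genes of the interferon gamma axis, which induces Cxcl9 and Cxcl10, Ifng itself was called higher in WT CD8+ TILs (log2 fold change 1.78, SE 0.47, adjusted p = 0.0326 with edgeR), at 11, 7.38, 8.56 and 12.3 CPM against 2.63, 4.14, 1.94 and 2.21 CPM in CD4+ libraries. Its receptor genes Ifngr1 (−1.56, SE 0.19) and Ifngr2 (−1.71, SE 0.35) and the kinase gene Jak2 (−0.89, SE 0.12) were called lower. In Sirt2-/- TILs Irf8 was called higher in CD8+ TILs (1.40, SE 0.19), and Ifngr1 (−1.39, SE 0.25) and Jak2 (−1.16, SE 0.14) lower.

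Between genotypes, 0 of the 8 interferon gamma axis genes were called in either cell type with edgeR, although some had an unadjusted p under 0.05 in CD8+ TILs and 0 in CD4+ TILs. Among them were Ifngr2 (log2 fold change 1.28, SE 0.35), Irf1 (0.63, SE 0.19) and Ifngr1 (0.57, SE 0.21), and they are named after their values were seen. Of 10 genes for receptor signaling and ligand processing, Arrb1 (−1.43, SE 0.20), Rgs1 (−1.93, SE 0.22) and Rgs2 (−2.18, SE 0.35), which damp receptor signals, were called lower in WT CD8+ TILs. Dpp4, a protease that trims chemokines, was called higher (0.77, SE 0.19). In Sirt2-/- TILs Arrb1 (−1.54, SE 0.23) and Rgs1 (−1.50, SE 0.21) were called lower. None of the 10 was called between genotypes.

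Other cell types the samples could hold were traced by summed marker levels over all 16 libraries. The sum was 1897 to 2889 CPM for 7 T cell genes, of which 1 was called higher and 3 lower in WT CD8+ than in WT CD4+ TILs. All 3 genes listed for the CD4 lineage were called lower and both for the CD8 lineage higher in that comparison, and all 6 Treg genes lower in both genotypes. The sums were 185 to 432 CPM in CD8+ and 1488 to 3231 CPM in CD4+ libraries for 6 Treg genes, 3.69 to 15.2 CPM for 6 dendritic cell genes and 0 to 0.946 CPM for 5 neutrophil genes. For 4 B cell genes it was 0.0179 to 5.95 CPM, for 7 melanoma genes 3.83 to 98.4 CPM and for 5 erythroid genes 0 to 9.31 CPM. The 2 highest melanoma sums, 98.4 and 81.5 CPM, were those of WT CD4+ replicate 1 and Sirt2-/- CD4+ replicate 4, and the third highest was 15.7 CPM. Between genotypes, none of the genes on these lists was called in either cell type with edgeR.

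How the ligands varied together within groups depended on the libraries used. For each of the 7 members with at least 10 counts in at least 12 libraries, the 3 genes with the highest Pearson correlation of log2 CPM, after subtraction of group means, were listed over 16 libraries and again over 13, without the libraries with few genes. The 2 lists shared no gene for any of the 7 members. Over 16 libraries the genes most like Xcl1 were Fam83d (r = 0.99), A830035O19Rik (r = 0.97) and Csf2 (r = 0.97), and over 13 libraries Lif (r = 0.97), Ssr2 (r = 0.97) and Gm16464 (r = 0.94). For Cxcl10 over 13 libraries they were Arhgef11 (r = 0.96), Ifit3b (r = 0.95) and Jun (r = 0.92). For the other eligible members over 16 libraries, the most like genes were Hist1h2bp for Ccl3 (r = 0.98), Utp14b for Ccl4 (r = 0.99), Rtraf for Ccl5 (r = 0.92), 4930513N10Rik for Ccl1 (r = 0.93) and Gm17767 for Cxcl16 (r = 0.97). Over 13 libraries they were Prpf38a (r = 0.91), Cdc42bpa (r = 0.91), Mindy2 (r = 0.93), Hk3 (r = 0.93) and Lrrc32 (r = 0.95), in the same order of members. Ccl3 and Ccl4 had r = 0.96 with each other over 16 libraries and r = 0.29 over 13. These correlations describe the libraries, which differ in depth and in number of genes detected, and carry no test.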

How the data were processed

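The authors deposited 1 table of read counts per gene, made with STAR and HTSeq on mm10 per the labels, with versions and strand setting not given in the sources used here. Counts were raw and whole, and totals were 28000949 to 62407851 per library. Precision also depends on the genes detected, which were fewest in the library with the most counts. The library kit started from very little total RNA, and no molecular identifiers were counted, so PCR copies are not separated from molecules.

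Each comparison started from all 55450 genes. With all libraries, the 14892 to 17270 that passed the filter on low counts were fitted. edgeR 4.0.16 in R 4.3.3 (filterByExpr, TMM, robust quasi-likelihood test, Benjamini-Hochberg threshold 0.05) was run on the 8 libraries of each comparison, and on all 16 for the interaction. CPM used TMM-scaled library sizes, and SE is the log2 fold change divided by the root of F. Alternatives were DESeq2 1.42.0 (its test, and its size factors alone), limma 3.58.1 voom with sample quality weights, no filter, a replicate block, each library left out, and the 3 libraries with few genes left out. Scripts were tested on simulated data.

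The members and the lists of other ligands, receptors, interferon gamma axis, receptor signaling and cell type markers were chosen with earlier results of these data known. The rule for named genes was the 10 members, Sirt2, the receptors of the members, other listed genes that were called (at most 8 per list), the defining markers, and the 3 genes most like each eligible member. Ncr1 and the genes that overlap members are named outside it, and other genes named outside it are marked where they appear. Groups follow the genotype and cell type that the labels give each library. The study's methods give 4 per group without saying which library came from which mouse, and p-values measure the spread between these libraries. Exon lengths and overlaps are from GENCODE M21 on GRCm38, and promoter sequences from RefSeq on GRCm38.p6. A few listed genes are not reported here.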

Additional observations from a re-analysis of the deposited data

Results flagged for a closer look

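Within groups of 4 libraries, 7 of 39 gene and group combinations had a highest or lowest library whose gap to the nearest other exceeded Dixon's 95% critical value. That value assumes normal spread, which counts near 0 do not have, so the number has no expectation by chance here. For Ccl8 and Cxcl9 in WT CD4+ TILs the other libraries were at 0, which fixes the ratio at its maximum. Sirt2-/- CD8+ replicate 4 was the far value for Ccl2, at 8.33 CPM, and for Ccl8, at 1.75 CPM. Ccl5 was at 276 CPM in WT CD4+ replicate 2. Ccl8 was at 0.131 CPM in the same WT CD4+ library, with the other 3 at 0. Cxcl9 was at 0.267 CPM in WT CD4+ replicate 3 and at 0.380 CPM in WT CD8+ replicate 3. Cxcl16 was at 0 in WT CD8+ replicate 1, the only far value that was the lowest of its group. Leaving out Sirt2-/- CD8+ replicate 4 moved the log2 fold change of Ccl2 between genotypes in CD8+ TILs from 4.06 to 0.96.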

How the results depend on the processing

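Of 682 member fold changes recomputed under an alternative, 63 had the opposite sign to the value with all libraries. None of those was a value called there, but the only member value called there was that of Ccl5 between cell types in WT TILs. In the comparison of CD8+ with CD4+ WT TILs, 1765 genes and 1 member were called. DESeq2 called 2657 genes and 2 members, voom with quality weights 5504 and 4, and the fit without the libraries with few genes 4394 and 4, while no filter gave 0 members (Ccl5 then had 1.59). Leaving out 1 library gave 1022 to 2767 genes and 0 to 3 members, with 0 without WT CD4+ replicate 3 and 3 without WT CD4+ replicate 1. In Sirt2-/- TILs, 354 genes and 0 members were called against 1340 and 2 with DESeq2, 4481 and 4 with voom, and 4250 and 4 without Sirt2-/- CD4+ replicate 4. The range over libraries left out was 111 to 4250 genes and 0 to 4 members. Between genotypes in CD8+ TILs, 1 gene was called, against 28 with DESeq2, 5 under voom, 5 with no filter, 7 without the library with few genes, and 0 to 7 with 1 library left out. In CD4+ TILs 0 were called, against 7 with DESeq2, 4 under voom, and 6 when the libraries with few genes were left out, 1 of them a member (Ccl2). DESeq2 called 2 genes for the interaction. The causes of these shifts were not tested.

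With voom, log2 fold changes of opposite sign between genotypes were 0.19 for Ccl1 and 0.36 for Xcl1 in CD4+ TILs, and −0.066 for Ccl4, −0.077 for Ccl5 and −0.34 for Xcl1 in CD8+ TILs. For CD8+ over CD4+ in Sirt2-/- TILs they were −2.84 for Ccl2, −1.93 for Ccl8, −0.0056 for Cxcl10 and −0.25 for Cxcl16, and for the interaction −0.75 for Ccl4, −2.89 for Ccl8 and −0.72 for Xcl1. Without the libraries with few genes they were −0.036 for Ccl5 and −0.14 for Xcl1 between genotypes in CD8+ TILs, −0.27 for Ccl2 between cell types in Sirt2-/- TILs, and −0.28 for Ccl4 in the interaction.

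Leaving out 1 library turned the sign of these values, none of them called. Between genotypes in CD4+ TILs the ranges were −1.52 to 0.23 for Ccl1, −0.15 to 1.03 for Ccl4, −0.67 to 0.14 for Ccl5, −1.06 to 0.38 for Xcl1, −0.082 to 0.61 for Cxcl10 and −0.33 to 0.52 for Cxcl16. In CD8+ TILs they were −0.76 to 0.043 for Ccl1, −0.12 to 0.16 for Ccl5 and −0.20 to 0.50 for Xcl1. Between cell types in Sirt2-/- TILs they were −2.94 to 0.56 for Ccl2, −1.17 to 1.67 for Ccl8 and −0.26 to 1.02 for Cxcl16. For the interaction they were −0.56 to 1.20 for Ccl1, −1.24 to 0.0074 for Ccl3, −0.62 to 0.55 for Ccl4, −0.087 to 0.72 for Ccl5, −2.42 to 1.98 for Ccl8, −0.18 to 1.26 for Xcl1 and −3.29 to 3.68 for Cxcl9.

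Libraries carry replicate numbers, but the sources used here do not say that same-numbered CD8+ and CD4+ libraries share a mouse. The numbers were therefore not taken to pair them. Deviations of same-numbered CD8+ and CD4+ libraries correlated at 0.067 to 0.119 in WT and −0.014 to 0.133 in Sirt2-/- TILs. All 4 WT pairs and 2 of 4 Sirt2-/- pairs correlated best with their own number, a hint from the data and not the design. With a replicate block, 3 members were called between cell types in WT TILs (Ccl3, 3.59; Ccl4, 3.71; and Ccl5, 1.71 on the log2 scale), 108 genes between cell types in Sirt2-/- TILs and 4 genes between genotypes in CD8+ TILs. Blocked values of opposite sign were 0.70 for Ccl1, 0.55 for Xcl1, −0.33 for Cxcl10 and −0.74 for Cxcl16 between genotypes in CD4+ TILs, −2.58 for Ccl2 and −1.78 for Ccl8 between cell types in Sirt2-/- TILs, and −0.11 for Ccl4 and −2.48 for Ccl8 in the interaction.

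Members near 0 counts (Ccl2, Ccl8 and Cxcl9) are limited by counting, and their fold changes rest on few libraries.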
